A study of Mus musculus and Acomys cahirinus with 18 samples.

Results

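The genes described here are 9 symbols whose transcripts moved in opposite directions in mouse and in the spiny mouse Acomys cahirinus after the ureter was closed: Abca13, Rarres2, Ttr, Mogat2, Nsg2, Ccdc180, Cabp2, Bpifc and Vmp1. They were chosen by the sign of their log2 fold changes, which differed between the species in the authors' deposited tables, so the opposition itself is a description and carries no test. They are 9 of 1189 symbols listed in both species on any day, and 58 of those 1189 (4.88%) had opposite signs on some pair of days. Kidney RNA was sequenced in 18 libraries, 3 in each group. The mouse groups were wild-type C57BL/6 males, the strain given as C57BL/6J in the protocol, either sham operated (7 to 14 weeks old), 2 days after unilateral ureteral obstruction of the left kidney (10.1 weeks) or 5 days after it (10.1 to 14 weeks). The Acomys groups were wild-type males, sham operated (9.9 to 14.3 weeks), at day 2 (10.3 to 14.3 weeks) or at day 5 (9.9 to 10.4 weeks). The deposited values are 4 tables. Every table compares the obstructed kidneys of 1 species and day with sham kidneys of that species and lists only entries at a false discovery rate (FDR) under 0.05. They hold no values per library, so the spread between animals, the standard error of a fold change and the read depth cannot be given, and an unlisted gene may have missed the threshold or not have been tested. Both days of a species were set against the same 3 sham libraries.

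Closing a ureter raises the pressure in the tubules, and the kidney answers with tubule injury, inflammation and, in laboratory mice, scarring. The 9 genes belong to no common pathway. Abca13 encodes a very large membrane protein of the ABCA lipid transporters and Mogat2 an acyltransferase that makes diacylglycerol from monoacylglycerol, best known from fat absorption in the gut. Rarres2 encodes chemerin, a secreted attractant of immune cells and an adipokine, and Ttr encodes transthyretin, the carrier of thyroxine and of retinol-binding protein that liver and choroid plexus secrete. Nsg2 encodes an endosomal protein of neurons, Cabp2 a calcium sensor known from the inner ear and Ccdc180 a coiled-coil protein. Bpifc belongs to the lipid-binding family of BPI, and Vmp1 encodes a membrane protein of the endoplasmic reticulum that is needed to form autophagosomes.

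Mouse promoters are shown for 4 of the 6 members listed in all 4 tables: Abca13 and Ccdc180, which fell in mouse and rose in Acomys, and Bpifc and Vmp1, which did the reverse. They come from RefSeq on the build GRCm38.p6, whereas the submitters' processing notes name mm9, and no Acomys sequence was used here. Abca13 is chr11:9191692-9191991 on the plus strand, Ccdc180 chr4:45890053-45890352 on the plus strand, Bpifc chr10:86011811-86012110 on the minus strand and the outermost Vmp1 window chr11:86683787-86684086 on the minus strand. Each is printed 5′ to 3′ in the direction of its gene, and capitals mark a match to 1 of the 9 motifs named in the next paragraph.
Abca13: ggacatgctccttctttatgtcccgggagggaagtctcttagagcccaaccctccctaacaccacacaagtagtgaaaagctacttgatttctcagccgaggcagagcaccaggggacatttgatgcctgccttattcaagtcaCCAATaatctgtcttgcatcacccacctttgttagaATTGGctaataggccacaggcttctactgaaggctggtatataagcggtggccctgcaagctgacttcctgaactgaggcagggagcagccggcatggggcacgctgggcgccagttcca
Ccdc180: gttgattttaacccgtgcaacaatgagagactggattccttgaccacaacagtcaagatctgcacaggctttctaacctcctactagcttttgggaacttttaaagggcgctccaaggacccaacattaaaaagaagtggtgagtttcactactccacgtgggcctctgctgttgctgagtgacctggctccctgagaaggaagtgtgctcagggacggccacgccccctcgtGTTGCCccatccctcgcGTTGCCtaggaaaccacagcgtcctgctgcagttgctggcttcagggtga
Bpifc: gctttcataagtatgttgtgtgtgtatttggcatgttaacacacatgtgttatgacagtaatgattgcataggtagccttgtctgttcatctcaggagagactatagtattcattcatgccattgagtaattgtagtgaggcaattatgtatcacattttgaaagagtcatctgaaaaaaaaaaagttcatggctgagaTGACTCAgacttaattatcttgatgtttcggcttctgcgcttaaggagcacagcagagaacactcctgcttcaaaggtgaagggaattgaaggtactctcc
Vmp1: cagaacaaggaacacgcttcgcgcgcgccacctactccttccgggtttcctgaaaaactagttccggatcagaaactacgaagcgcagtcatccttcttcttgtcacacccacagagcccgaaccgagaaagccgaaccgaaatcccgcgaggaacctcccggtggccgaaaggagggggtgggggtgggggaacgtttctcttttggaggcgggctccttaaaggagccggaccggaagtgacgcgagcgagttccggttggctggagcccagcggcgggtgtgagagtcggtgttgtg

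Across the 10 windows that the table holds for 6 members, letters of both strands were searched for AP-1 (TGANTCA), STAT (TTCNNNGAA), HNF4 (CAAAGNCCA), the core of the ciliary X-box (GTTGCC), the lysosomal CLEAR box (TCACGTGA), a consensus each for NF-kB and HNF1 (letters not printed here), the TATA box (TATAAA) and the letters CCAAT. In the printed windows the matches do not overlap each other. Bpifc held 1 AP-1 match, a motif in 7.81% of all 32851 windows. Ccdc180 held 2 X-box cores (12.5% of windows had at least 1), and Abca13 held 2 CCAAT matches (37.4%). Both Nsg2 windows, which overlap, shared 1 STAT match (8.30%), 1 of them also held CCAAT, and so did 1 of the 2 Cabp2 windows. The 3 Vmp1 windows held none of the 9. None of these 10 windows held the letters for HNF4 (1.98% of all windows), CLEAR (0.974%), NF-kB (1.63%), HNF1 (0.399%) or TATA (13.6%). Rarres2, Ttr and Mogat2 had no window, so nothing can be said of motifs at these genes. Such matches describe letters only. The Vmp1 gene also spans Mir21a, whose product is much studied in kidney scarring and is shown for that reason: mmu-miR-21a-5p lies at chr11:86584120-86584141 (GRCm38.p6, minus strand) and reads as follows, with its seed (bases 2 to 8) in capitals.
mmu-miR-21a-5p: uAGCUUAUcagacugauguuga
Mir21a was not listed in either mouse table.

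Opposed signs were first counted over all symbols listed in both species. On day 2, 729 symbols were listed in both species and 27 of them (3.7%) had opposite signs, all 9 members included. In 24 of the 27 (3.29% of the 729) mouse fell and Acomys rose, and in 3 (0.412%) the reverse held. On day 5 the count was 35 of 1011 (3.46%), 25 of them fallen in mouse and risen in Acomys (2.47%) and 10 the reverse (0.989%), and 6 members were among the 35. The rule used these contrasts, so nothing is read from the members' counts. Rise was the commoner call in either species, at 58.3% of the 3915 entries on mouse day 2, 60.9% of 5365 on mouse day 5, 89.9% of 1765 on Acomys day 2 and 78.6% of 2500 on Acomys day 5. Falls made up 41.7% and 39.1% in mouse and 10.1% and 21.4% in Acomys.

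**Figure D1:**
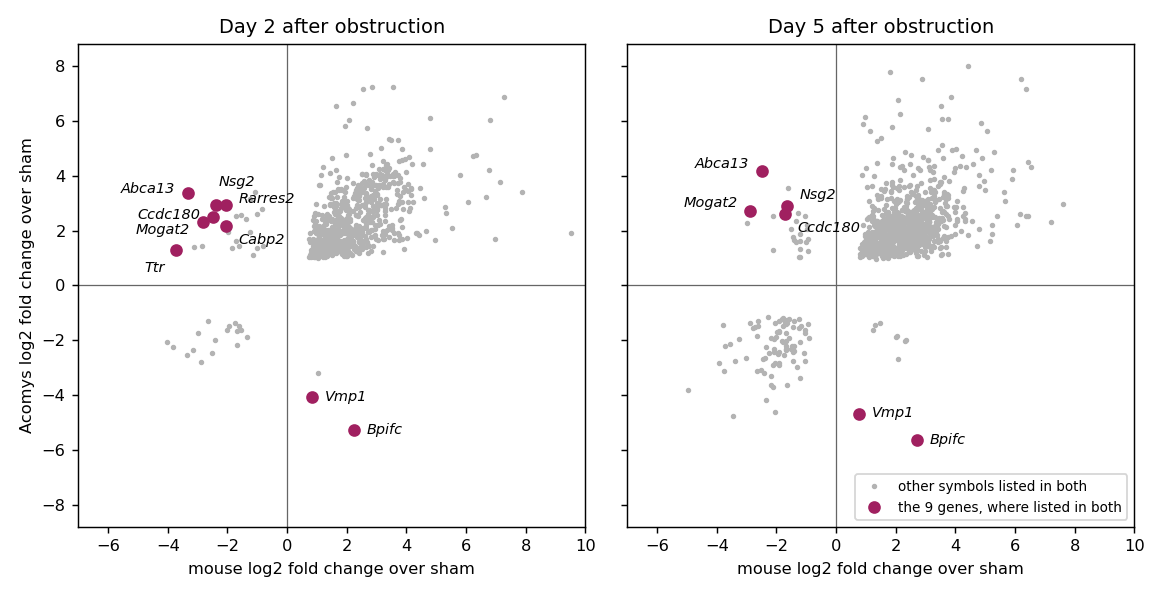
Log2 fold changes over sham of every symbol listed in both species, mouse on the horizontal and Acomys on the vertical axis, at day 2 (729 symbols) and day 5 (1011 symbols), as the authors list them. The 9 genes are marked: 7 lie at the upper left on day 2, where mouse fell and Acomys rose, and Bpifc and Vmp1 lie lowest at the lower right on both days.

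Ranked by the gap between the species (Acomys minus mouse log2 fold change), the members filled places 1 to 8 of the 27 on day 2, with gaps from 7.53 in size for Bpifc to 4.91 for Vmp1, and Cabp2 stood at place 15 with 4.24. The nearest symbols outside the set were Igfbp2 at 4.53, Arhgef39 at 4.50 and Apobec2 at 4.39. On day 5 Bpifc (8.37 in size), Abca13 (6.65), Mogat2 (5.59) and Vmp1 (5.46 in size) held places 1 to 4, Nsg2 (4.54) place 9 and Ccdc180 (4.33) place 11. Symbols outside the set in between included D630023F18Rik at 5.24, Lctl at 5.18 and Itih2 at 4.63. In all, 14 symbols were opposed on both days, 6 members and 8 others. Because the members were chosen on these same fold changes, their places in the ranking are a description.

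Abca13 had the widest gap among the genes that fell in mouse. In the authors' deposited tables it fell in mouse (-3.32 on day 2, FDR 1.08e-05, and -2.49 on day 5, FDR 6.04e-05). In Acomys the authors' deposited tables gave a rise of 3.37 on day 2 (FDR 0.00174) and of 4.16 on day 5 (FDR 0.000438). The 2 days lay on the same side in each species, and the mouse fall was smaller on day 5 while the Acomys rise was larger. The Acomys locus carries the UniProt entry name of mouse ABCA13. The lists of related genes given from here on are counted without the members themselves, and genes in neither count were not listed. Each count is to be read against the share of rises among all entries of its table. That share was 58.3% on mouse day 2, 60.9% on mouse day 5, 89.9% on Acomys day 2 and 78.6% on Acomys day 5. Of the other 15 genes of the ABCA family, 2 fell and 1 rose on mouse day 2 and 1 fell and 2 rose on mouse day 5. In Acomys 1 of the 15 rose on day 2 and 2 on day 5, with 0 falls. Since most Acomys entries had risen, 0 falls among so few listed genes say little about the family. Abca1, the cholesterol exporter, moved the same way in both species: in the authors' deposited tables it rose by 1.70 and 1.68 in mouse and by 2.04 and 2.38 in Acomys.

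Mogat2, the other lipid gene, was steady between the days. The authors' deposited tables listed it at -2.83 (FDR 8.35e-05) and -2.87 (FDR 4.65e-05) in mouse on days 2 and 5, and at 2.32 (FDR 0.0271) and 2.72 (FDR 0.00779) in Acomys. Among the other 17 acylglycerol synthesis genes, 5 fell and 2 rose on mouse day 2 and 6 fell and 1 rose on day 5. In Acomys 1 rose and 0 fell on day 2, and 1 rose and 2 fell on day 5. The related acyltransferase gene Mogat1 fell in both species on day 5 (-1.22 in mouse and -3.37 in Acomys), and so did Mttp, which loads fat onto lipoproteins (-1.78 and -2.06), in the authors' deposited tables. Dgat2, which completes the triglyceride and lies next to Mogat2 in the mouse genome, fell in mouse (-0.99 and -1.56) in the authors' deposited tables. Of 18 genes flanking the members, 5 were listed in mouse and 0 in Acomys. Besides Dgat2 these were Gstp3 by Cabp2 (4.32 and 2.73), Stra6l by Ccdc180 (1.57 on day 2), Dsg2 by Ttr (1.12 on day 5) and Fbxo7 by Bpifc (-0.85 on day 5). Unlike Dgat2, each of them moved against the mouse direction of its member in the authors' deposited tables.

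Rarres2 had the best supported rise of the set in Acomys. The authors' deposited tables placed it at 2.93 on day 2 (FDR 6.75e-06) and at 2.75 on day 5 (FDR 1.58e-05), the 17th lowest FDR among the risen loci on each day. In mouse the authors' deposited table for day 2 gave -2.06 (FDR 0.00162), and the gene was not listed on day 5. The Acomys locus is named after chemerin of the Chinese hamster. Chemerin's receptor gene Cmklr1 rose in mouse by 0.97 and 1.62 in the authors' deposited tables and was not listed in Acomys. Of the other 23 chemerin and retinoid genes 4 rose and 1 fell on mouse day 2, 6 rose and 2 fell on mouse day 5, 1 rose and 1 fell on Acomys day 2 and 3 rose and 2 fell on Acomys day 5. The retinoic acid synthesis gene Aldh1a2 rose by 4.22 and 4.73 in mouse and by 1.45 on Acomys day 5 in the authors' deposited tables. Cyp26a1, which breaks retinoic acid down, fell in Acomys (-2.74 and -3.30) in the authors' deposited tables.

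Ttr showed the steepest mouse fall of the 9. The authors' deposited tables listed -3.73 on day 2 (FDR 0.000161) and -3.57 on day 5 (FDR 0.000141) in mouse. In Acomys it rose by 1.28 on day 2 (FDR 0.0280), the smallest Acomys change of the set in the authors' deposited table, and was not listed on day 5. Of the other 14 thyroid hormone genes 3 fell and 2 rose on mouse day 2, and 6 fell and 4 rose on mouse day 5. In Acomys 1 was listed on each day. On day 5 that was Dio3, the deiodinase gene that inactivates thyroid hormone, which rose by 5.39 there and by 1.52 on mouse day 5 in the authors' deposited tables. Serpina7, the thyroxine-binding globulin gene, rose in mouse by 7.46 and 6.72 in the authors' deposited tables. Dio1, another deiodinase gene, fell on mouse day 5 (-1.95) and on Acomys day 2 (-1.85) in the authors' deposited tables.

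Markers of liver and choroid plexus, the tissues known for Ttr, did not all follow it. Of 15 such markers besides Ttr, of which Kl, Aqp1 and Folr1 are also tubule genes, 6 fell and 2 rose on mouse day 2, 6 fell and 3 rose on mouse day 5, 3 rose and 1 fell on Acomys day 2, and 1 rose and 1 fell on Acomys day 5. Beside Ttr in mouse, the authors' deposited tables had albumin (Alb) at -2.36 and -4.12 and the channel gene Kcnj13 at -1.58 and -2.21, against the fibrinogen chain gene Fgb at 6.61 and 3.63. Mean logCPM of Kcnj13 was low in mouse, at -0.50. On Acomys day 2 the apolipoprotein gene Apoa1 rose by 2.78 at a low mean logCPM of -0.96 in the authors' deposited table. Trf rose there by 2.10 (logCPM 7.96) and Apoc3 by 1.98 (logCPM 7.57), and the fetuin gene Ahsg fell by 1.65 (logCPM 4.24). Otx2 and Clic6 of the choroid plexus were not listed in any table. Of 9 fat cell markers, named because chemerin is an adipokine, Lpl fell in mouse (-2.64 and -1.96) in the authors' deposited tables, and Cidec rose in Acomys by 3.65 and 2.59. Lpl fell by 1.30 on Acomys day 2 and Cfd rose by 2.32 on Acomys day 5 in the authors' deposited tables, while Adipoq, Lep and Plin1 were not listed. The part of these markers in the results was not tested. In whole kidney, fewer cells of a type and less RNA per cell cannot be told apart.

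Nsg2, Ccdc180 and Cabp2 had mean logCPM values of 0.77, -0.61 and -0.99 in mouse in the authors' deposited tables. In the authors' deposited tables Nsg2 stood at -2.37 (FDR 0.000500) and -1.65 (FDR 0.00548) in mouse and at 2.92 (FDR 0.00168) and 2.90 (FDR 0.00166) in Acomys. Its Acomys locus is the 1 member without a protein name, so its identity rests on the symbol the authors gave it. Of the other 13 neuronal vesicle genes 3 fell and 2 rose on mouse day 2, 2 fell and 4 rose on mouse day 5, 1 rose on Acomys day 2, and 1 rose and 1 fell on Acomys day 5. In the authors' deposited tables the paralogue Nsg1 rose by 1.14 on mouse day 5. Uchl1, a neuronal ubiquitin hydrolase gene, rose in both species in the authors' deposited tables (1.60 and 2.10 in mouse, 2.62 and 2.44 in Acomys). Sv2a of the same list fell in both species in the authors' deposited tables (-1.62 and -1.69 in mouse, -1.42 on Acomys day 5). Syp fell on both mouse days and Stmn2 on mouse day 2.

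Ccdc180 fell in mouse (-2.47, FDR 0.00103, and -1.71, FDR 0.00973) and rose by 2.49 (FDR 0.0197) and 2.62 (FDR 0.0118) in Acomys in the authors' deposited tables. Its Acomys locus bears the name of the human protein. Of 27 other motile cilium genes 3 rose and 2 fell on mouse day 2 and 4 rose and 2 fell on mouse day 5. In Acomys 3 rose on day 2 and 5 on day 5 with 0 falls, while 24 and 22 of the 27 were not listed, in tables where 89.9% and 78.6% of all entries had risen. The median of the listed genes was 2.03 on Acomys day 2 and 2.33 on day 5, against 1.99 and 1.95 over all entries of those tables. Foxj1, the master regulator of motile cilia, rose in both species, by 3.50 and 4.57 in mouse and by 2.03 and 2.33 in Acomys in the authors' deposited tables. The dynein gene Dnah11 fell in mouse (-3.16 and -3.02), and Ccdc40 and Drc1, needed to assemble beating cilia, stood at 3.16 and 3.62 on Acomys day 5 in the authors' deposited tables.

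Cabp2 was listed on day 2 alone, at -2.06 in mouse (FDR 0.0387) and 2.17 in Acomys (FDR 0.00656) in the authors' deposited tables. No other member was absent from both day 5 tables. Among the other 14 calcium sensor genes 3 fell and 1 rose on each mouse day. The largest of these falls in the authors' deposited tables was that of Pvalb, the parvalbumin gene of the distal convoluted tubule (-8.54 and -10.8). In Acomys 0 of the 14 were listed on day 2, and Calb1, calbindin of the distal tubule, was the 1 listed on day 5. Calb1 fell in both species (-4.29 and -3.92 in mouse and -2.82 on Acomys day 5) in those tables of the authors.

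Bpifc and Vmp1 went the other way round. In the authors' deposited tables Bpifc rose in mouse by 2.25 (FDR 0.00406) and 2.73 (FDR 0.000584) and fell in Acomys (-5.29, FDR 0.00206, and -5.64, FDR 0.00128). Mean logCPM of Bpifc was low, 1.29 in mouse and 0.33 in Acomys, so the size of its Acomys fall rests on values near 0 CPM after obstruction. Of the other 13 genes of its family 1 rose on mouse day 2 and 2 on mouse day 5, and 1 rose on each Acomys day, with 0 falls in either species. Rises made up 58.3% and 60.9% of all mouse entries, and 89.9% and 78.6% of all Acomys entries. The 0 falls among so few listed genes therefore say little about the family. Lbp, the acute-phase binder of bacterial lipopolysaccharide, rose in both species, by 2.29 and 2.71 in mouse and by 2.04 and 1.75 in Acomys in the authors' deposited tables.

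Vmp1 changed little in mouse and steeply in Acomys. It rose by 0.84 (FDR 0.0199) and 0.77 (FDR 0.0459) in the mouse tables, with FDRs close to the threshold, and stood at -4.07 (FDR 3.12e-05) and -4.68 (FDR 2.44e-05) in the Acomys tables, all as in the authors' deposited tables. On each day its FDR was the lowest (place 1) among all fallen Acomys loci, 178 on day 2 and 536 on day 5. Both its locus and that of Bpifc carry the mouse protein's entry name. Of 33 other genes of autophagosome formation 0 were listed in Acomys on either day, and in mouse Gabarapl1, which coats the forming vesicle, fell (-0.92 and -1.08) and Atg16l2 rose by 1.04 on day 5 in the authors' deposited tables. Ptrh2 and Tubd1, the neighbours of Vmp1 in the mouse genome, were not listed in any table.

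**Figure D2:**
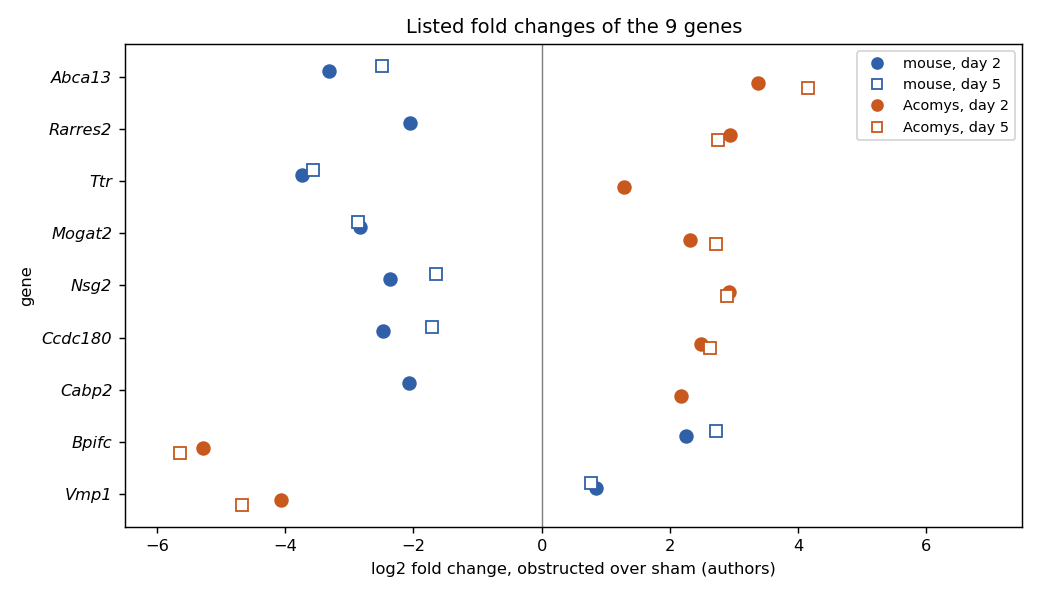
Log2 fold change over sham (horizontal axis) of each of the 9 genes (rows) in the authors' deposited tables, mouse in blue and Acomys in orange, filled circles for day 2 and open squares for day 5. A missing symbol means that the gene was not listed: 32 of the possible points are drawn, with Rarres2 and Cabp2 absent on mouse day 5 and Ttr and Cabp2 absent on Acomys day 5.

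Mean expression was compared next. The rule did not use it directly, but it averages sham and obstructed libraries, so the opposed changes enter it. A difference in the mean is therefore not independent of the choice of the genes. The measure is logCPM, the log2 of CPM (counts scaled to a common library size) averaged over the libraries of a species, which is not corrected for transcript length and refers to a different reference in each species. Over 1189 symbols listed in both species the Acomys minus mouse difference had a median of -0.13, with 5% of symbols below -2.64 and 5% above 2.16. Ttr differed by 0.39 (5.18 in mouse, 5.57 in Acomys), Ccdc180 by 0.74 (-0.61 and 0.13) and Bpifc by -0.96 (1.29 and 0.33), all within that range. Abca13 lay just inside the lower end at -2.59 (6.81 and 4.21), and Mogat2 just beyond it at -2.70 (3.85 and 1.15). Past the upper end were Rarres2 at 2.23 (4.62 and 6.85), Cabp2 at 2.85 (-0.99 and 1.86) and Nsg2 at 3.18 (0.77 and 3.96). Vmp1 differed most, by -5.52 (7.46 in mouse and 1.95 in Acomys), with 5 of the 1189 symbols lower still.

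**Figure D3:**
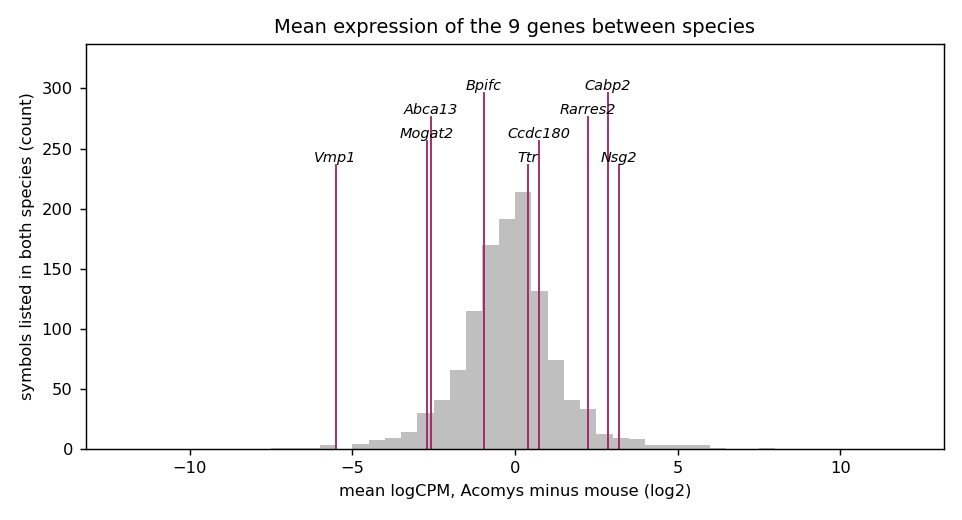
Acomys minus mouse difference in mean logCPM (horizontal axis, log2) for 1189 symbols listed in both species, counted in bins (grey), with a line at the value of each of the 9 genes. Vmp1 lies far to the left at -5.52, and Rarres2, Cabp2 and Nsg2 lie to the right at 2.23, 2.85 and 3.18.

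The mean and the 2 fold changes together imply a level for each group, if logCPM is read as the log2 of the mean CPM over 3 equal groups. These implied levels carry no error, because values per library are not in the tables, and their shifts between sham and obstruction restate the fold changes by which the genes were chosen. How near the species lie to each other on this scale also rests on CPM without length correction against a different reference in each species. Abca13 came to 263 CPM in mouse sham, 26.3 on day 2 and 46.8 on day 5, and to 1.91, 19.7 and 34.1 CPM in Acomys. The implied species difference (Acomys over mouse, log2) was thus -7.11 in sham kidneys and -0.42 and -0.46 on days 2 and 5. Mogat2 had the same shape: 33.9, 4.75 and 4.63 CPM in mouse and 0.53, 2.64 and 3.48 CPM in Acomys, a log2 difference of -6.003 in sham, -0.85 on day 2 and -0.41 on day 5. The size of its sham difference rests on the low Acomys value of 0.53 CPM.

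The other 4 genes listed in all tables had other shapes. Nsg2 came to 3.39 CPM in mouse sham and 2.91 in Acomys sham, and to 0.66 and 22.0 CPM on day 2 and 1.08 and 21.7 on day 5. Ccdc180 crossed, from 1.32 in mouse and 0.26 in Acomys sham to 0.24 and 1.44 CPM on day 2 and 0.40 and 1.58 on day 5. All of these Ccdc180 levels were low, so the size of its differences rests on small values. Bpifc crossed in the opposite sense, from 0.59 and 3.60 CPM in sham to 2.81 and 0.092 on day 2 and 3.92 and 0.072 on day 5. Vmp1 came to 10.5 CPM in Acomys against 118 in mouse in sham, 0.63 against 211 on day 2 and 0.41 against 201 on day 5. The log2 species differences were -0.22, 5.07 and 4.33 for Nsg2, -2.36, 2.60 and 1.97 for Ccdc180, 2.60, -4.93 and -5.76 for Bpifc, and -3.48, -8.39 and -8.94 for Vmp1 in sham, on day 2 and on day 5.

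**Figure D4:**
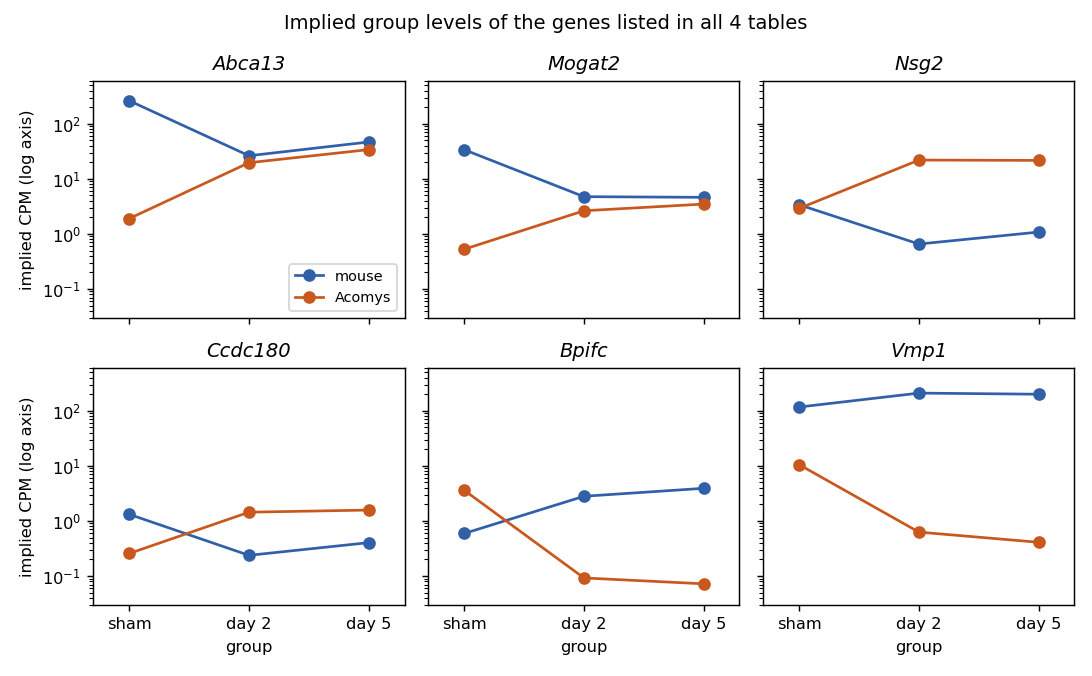
Implied CPM (vertical log axis, the same in every panel) in sham, day 2 and day 5 groups for the 6 genes listed in all 4 tables, mouse in blue and Acomys in orange; there are no error bars because the tables hold no values per library. The lines come nearer after obstruction for Abca13 and Mogat2, part for Nsg2 and Vmp1, and cross for Ccdc180 and Bpifc, which the choice of the genes and the scale of each species set.

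The labels given with each Acomys locus were compared with each other. For all 9 the mouse transcript accession and the Entrez ID given with the locus led to the stated symbol in RefSeq. These labels belong to 1 assignment by the authors, so their match cannot show that the locus is the counterpart of the mouse gene. No Acomys sequence was compared. Of the 9 loci 8 carry a protein entry name, 6 from mouse and the others from Chinese hamster and human, and each of the 8 names the protein of its symbol. Among the 27 opposed symbols on day 2, 1 locus had no protein name (Nsg2), and among the 35 on day 5 there were 3. Among the 8 members with a protein name, a second locus with that name existed in these tables for Abca13 alone. Nsg2, which has none, could not be searched in this way. On day 2 the authors' deposited table has 1 further locus named after ABCA13 that has no symbol, and on day 5 it has 3, so that 2 and 4 loci bear the name, and all of them rose. Of all Acomys entries 89.9% on day 2 and 78.6% on day 5 had risen, so a shared rise says little about these loci. Whether they are parts of 1 transcript or separate genes is not given in the sources used here. Entry names on more than 1 listed locus were few, 53 of 1156 on day 2 and 59 of 1466 on day 5. Their loci moved in the same direction in 52 and 58 cases, and all rose in 52 and 53. Loci of Vmp1, Bpifc or any other member that missed the FDR threshold would not be seen in these tables.

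Patterns most like each member's were sought among the symbols listed in the same tables, by Euclidean distance between log2 fold changes. Nsg2 and Ccdc180 were each other's nearest among 580 symbols over 4 tables, at a distance of 0.52. Rarres2, over the 3 tables that list it and 610 symbols, was nearest to Nsg2 (0.34) and then Ccdc180 (0.62). Abca13 was nearest to Nsg2 (1.85) and Mogat2 (1.88), and Mogat2 to D630023F18Rik (1.21) and Ccdc180 (1.23). Ttr, over 3 tables and 664 symbols, was nearest to Mogat2 (1.54) and to the dipeptidase gene Dpep1 (1.71). Bpifc and Vmp1 were each other's nearest at 2.86, and the next was Cbs at 7.33 and 4.54, a gene that fell in both species. The members were chosen for this pattern, so that their closeness is a description.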

How the data were processed

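The submitters' processing notes name Salmon, edgeR and the mouse build mm9 for these 18 kidney libraries. Read totals, tool versions, filters and the Acomys reference were not found in the labels or headers, which leaves the depth unknown. The authors deposited 4 tables of their own comparisons. Per the file headers these hold a log fold change, read as log2 because edgeR writes it so, a logCPM (log2 of mean CPM, identical on both days for every symbol) and an FDR, the authors' adjusted p-value, under 0.05 throughout. Groups came from sample titles. The members and gene lists were chosen with earlier results of these data known, and the comparisons of mean expression, implied levels, flanking genes, locus names and motifs were added after the files had been seen.

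No model was refitted and no test was run, because values per library were needed and the members were chosen on these fold changes. Species were matched by symbol. Of 201 genes in 11 lists, 200 matched an Entrez ID. Implied CPM was 3 times the mean CPM divided by 1 plus both linear fold changes for sham, and that value times each fold for the obstructed groups. The count of opposed symbols and the arithmetic of the implied levels, though not the averaging inside edgeR's logCPM, were tested on simulated data. For the implied levels, the simulated sham values were not as low, nor the changes as large, as those of some members, such as Bpifc. Named genes were the members, loci with their protein names, other opposed symbols with large gaps, list genes among the 2 highest or 2 lowest changes of their list in a table, and the 2 nearest patterns. That rule allowed more names than are given. The choice among them, of further list genes and of flanking genes was made after their values were seen. The alternatives were FDR under 0.01, a minimum change of 1, a logCPM of at least 0, matching by Entrez ID and filters on locus names. Python 3.11.15, numpy 2.4.6, pandas 2.3.3 and matplotlib 3.10.9 were used.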

Additional observations from a re-analysis of the deposited data

Results flagged for a closer look

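Loci outside the comparison by symbol drew attention because they carry the ABCA13 entry name and have no symbol, yet are listed as risen over the Acomys sham group. In the authors' deposited tables locus 401655 rose by 4.35 on day 2 (FDR 0.0176) and by 4.96 on day 5 (FDR 0.00541), at a mean logCPM of -1.34. On day 5 the authors' deposited table also had locus 971975 at 4.02 (FDR 0.0121, logCPM -0.91) and locus 178727 at 4.97 (FDR 0.0390, logCPM -1.61). The locus with the symbol Abca13 stood at 3.37 and 4.16 with a logCPM of 4.21. All of them moved against the mouse gene, while 89.9% of all Acomys entries on day 2 and 78.6% on day 5 had risen.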

How the results depend on the processing

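Of 50 recomputed counts, 45 stayed within 1.5 times the reported one. The 5 that moved were all at FDR under 0.01. At FDR under 0.01 the opposed symbols numbered 9 in place of 27 on day 2 (1.99% of 452 symbols listed in both species), 12 in place of 35 on day 5 (2.03% of 591) and 19 in place of 58 over any pair of days. The opposed members numbered 4 in place of 9 on day 2 (Abca13, Rarres2, Nsg2 and Bpifc), and the list genes that fell on Acomys day 2 numbered 3 in place of 6. On day 5, Ccdc180 and Vmp1 also missed FDR under 0.01. A minimum change of 1 removed Vmp1 on both days, through its mouse values. A logCPM of at least 0 removed Ccdc180 on both days and Cabp2 on day 2. Keeping loci whose entry name comes from mouse, rat or human, or is spelled exactly as the symbol, removed Nsg2 on both days, which has no entry name, and Rarres2 on day 2, whose hamster entry names chemerin in another spelling. Keeping only names on 1 locus, a setting chosen after seeing the data, removed Abca13 on both days. Matching by Entrez ID and keeping symbols with 1 Acomys locus left 729 and 1011 symbols listed in both species, as before. The unchanged counts at these 2 settings therefore say nothing about stability. No library was left out in turn. No paired analysis was possible because the deposited tables hold no values per library.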
